A study of Mus musculus with 9 samples.

Results

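The regions described here are the open chromatin regions that lie upstream of their assigned gene at a distance from 10 to 100 kb. They were chosen from 1 list of ATAC-Seq regions by position alone, as the regions whose assigned RefSeq transcript is a curated coding one and whose center lies in that window on the upstream side of its transcription start site (TSS). Of 17164 distinct regions in the list, 1567 (9.13%) met this rule, and they were assigned to 1327 genes.

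ATAC-Seq uses the Tn5 transposase, which inserts sequencing adapters into accessible DNA, to find open chromatin. It was applied to pharyngeal mesoderm and hearts taken from mouse embryos of day 8.75 (6 somites). The study had 9 libraries in 3 groups of 3, namely wild-type embryos, Isl1-/- embryos, which lack the LIM-homeodomain factor Isl1, and Isl1Cre+/-/Brg1fl/fl embryos, in which Cre made from the Isl1 gene removes the chromatin remodeler Brg1 only in cells that express or once expressed Isl1. The list held the regions common to the 3 wild-type libraries, and the mutant groups were not analysed here. Each region had coordinates in mm9, an assigned gene and a distance, with no height, score or value for a single library, so no genotype could be compared, no value had a replicate error and the read depth behind a region is unknown. The dissected tissue holds several cell types, and the list does not tell in which of them a region was open.

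Regions far from a TSS include enhancers, which are stretches of DNA bound by transcription factors that act on a promoter through looping of the chromatin fiber. Many genes that pattern the embryo are controlled by several such elements. Other distal open regions are bound by CTCF, a zinc-finger protein that, together with cohesin, anchors chromatin loops. A region is assigned to a gene by distance only, which does not show on which gene it acts.

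The sequences below show what such regions look like at genes of the tissue. Each is the central 300 bp of 1 member, on the plus strand of mm9, at a regulator of the heart or of the pharyngeal mesoderm or at a signaling gene. They are among the members of these genes that held the most kinds of motif of 19 searched, and capitals mark the matches.
Nr2f1, chr13:78349324-78349623: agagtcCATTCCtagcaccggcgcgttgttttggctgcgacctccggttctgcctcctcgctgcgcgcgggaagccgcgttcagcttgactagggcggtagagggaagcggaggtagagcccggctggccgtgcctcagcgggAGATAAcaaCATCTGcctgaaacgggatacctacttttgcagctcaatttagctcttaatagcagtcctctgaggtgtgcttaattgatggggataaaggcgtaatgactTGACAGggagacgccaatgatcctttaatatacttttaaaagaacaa
Jag1, chr2:136978934-136979233: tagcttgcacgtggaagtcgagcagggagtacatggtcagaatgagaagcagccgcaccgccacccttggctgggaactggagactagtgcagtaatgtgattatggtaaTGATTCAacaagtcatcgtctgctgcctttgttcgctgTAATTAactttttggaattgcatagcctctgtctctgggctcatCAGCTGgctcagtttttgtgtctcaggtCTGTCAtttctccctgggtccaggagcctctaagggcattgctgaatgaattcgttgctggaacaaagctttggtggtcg
Fgf10, chr13:119484002-119484301: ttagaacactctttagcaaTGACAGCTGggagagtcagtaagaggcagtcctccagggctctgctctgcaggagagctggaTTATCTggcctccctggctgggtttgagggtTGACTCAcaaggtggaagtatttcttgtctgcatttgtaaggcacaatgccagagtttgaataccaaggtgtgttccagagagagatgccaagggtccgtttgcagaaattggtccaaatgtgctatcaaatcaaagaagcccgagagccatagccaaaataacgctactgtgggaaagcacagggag
Msx1, chr5:38285005-38285304: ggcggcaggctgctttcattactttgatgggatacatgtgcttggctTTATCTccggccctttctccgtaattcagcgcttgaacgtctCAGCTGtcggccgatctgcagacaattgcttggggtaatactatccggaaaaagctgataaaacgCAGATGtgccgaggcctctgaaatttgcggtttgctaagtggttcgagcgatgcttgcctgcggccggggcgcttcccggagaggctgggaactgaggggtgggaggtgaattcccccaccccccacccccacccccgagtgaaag
Dkk1, chr19:30719068-30719367: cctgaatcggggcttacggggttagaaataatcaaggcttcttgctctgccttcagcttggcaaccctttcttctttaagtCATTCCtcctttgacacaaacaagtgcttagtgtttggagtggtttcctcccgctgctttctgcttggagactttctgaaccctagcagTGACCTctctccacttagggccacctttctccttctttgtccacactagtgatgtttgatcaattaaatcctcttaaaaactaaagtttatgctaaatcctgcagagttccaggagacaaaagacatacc
Wnt5a, chr14:29264095-29264394: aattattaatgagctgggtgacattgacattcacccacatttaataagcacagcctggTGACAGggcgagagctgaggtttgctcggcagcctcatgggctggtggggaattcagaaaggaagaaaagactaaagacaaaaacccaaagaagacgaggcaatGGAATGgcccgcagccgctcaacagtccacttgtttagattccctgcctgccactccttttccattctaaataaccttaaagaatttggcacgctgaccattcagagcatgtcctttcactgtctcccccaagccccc
The Nr2f1 window held 4 kinds of motif, namely those of TEAD factors, GATA factors and the TALE proteins Meis and Tgif, and an E-box of the type read by Hand and Twist proteins. In the Jag1 window, the matches were to the AP-1 site, the homeodomain core, the E-box CAGCTG and the TALE core. At Fgf10, the TALE core and the E-box CAGCTG overlap from position 20 to 28 of the window, and a GATA and an AP-1 match follow. The Msx1 window held a GATA match and both E-boxes. In the Dkk1 window, a TEAD match and the core of nuclear receptor sites were found, and Wnt5a had a TALE and a TEAD match. Such matches are letters in a sequence and were not measured as binding. The letters of each motif, read on both strands, and its frequency in all members are given with the other motif results.

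Nr2f1 encodes the nuclear receptor COUP-TFI, and its region of 1836 bp (chr13:78348556-78350391) lay 11339 bp upstream of the TSS in an intron of the noncoding gene A830082K12Rik. The region of Fgf10, a growth factor of the second heart field, spanned 875 bp at 19355 bp from the assigned TSS and fell within the annotated bounds of Fgf10, in an exon of the overlapping gene Gm16263. Msx1, a homeobox gene of the pharyngeal arches, had 1 region, 69330 bp upstream and 1199 bp wide. Nr2f1 did not have a listed region within 1 kb of its TSS, while Fgf10 and Msx1 did.

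Next, the distances were examined. The median distance from the TSS was 34856 bp, with quartiles at 20439 and 58790 bp. The number of members fell in each step of 10 kb, from 376 between 10 and 20 kb to 67 between 90 and 100 kb. The regions downstream of their TSS in the same window numbered 1916 and followed the same course, from 443 to 96. Upstream regions made up 45.0% of both classes together (95% Wilson interval 43.3 to 46.6%). In the single steps their share ranged from 47.8% at 20 to 30 kb to 41.1% at 90 to 100 kb, and the intervals of these steps overlapped. At the inner limit, the last region inside was at Slc38a2, 10008 bp upstream, and the first outside at Fam83a, 9968 bp upstream. At the outer limit, a region of Izumo3 at 99846 bp was inside and one of Lamp5 at 100016 bp was outside.

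**Figure D1:**
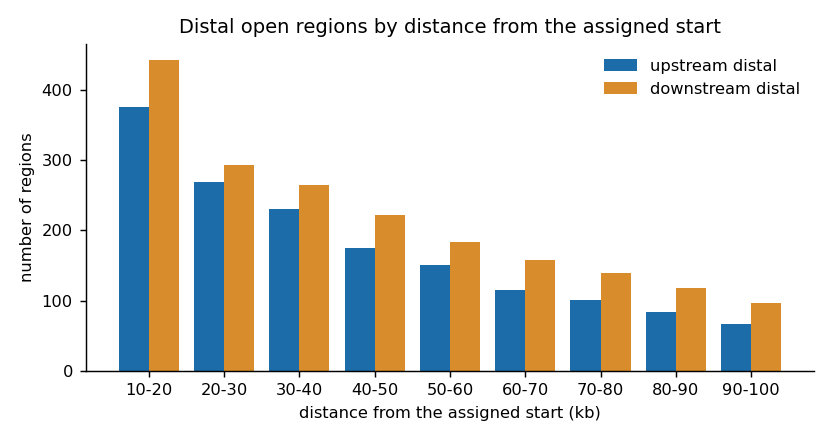
Number of open regions in each step of 10 kb from the assigned start, for regions upstream (blue) and downstream (orange). Both classes fall with distance, the upstream one from 376 to 67 regions, and the downstream bar is the taller one in every step.

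Most members lay outside genes. By the position of their midpoint in the GENCODE annotation of the same build, 1088 members (69.4%, Wilson interval 67.1 to 71.7%) were intergenic, 316 (20.2%) were intronic and 31 (1.98%) were exonic. For downstream regions, which can lie in the body of the assigned gene, 34.0% were intergenic and 52.6% intronic. Among the intronic members, 180 of 316 (57.0%) were inside another coding gene, such as the Wnt5a region in Erc2 and the Dkk1 region in Prkg1, and 104 (32.9%) were inside the assigned gene, which then has a further TSS upstream in the annotation. The remaining 132 members (8.42%, 7.15 to 9.90%) were within 1 kb of an annotated TSS. Of these, 76 were at the start of a coding gene, 14 at a processed transcript, 13 at a lincRNA, 12 at a pseudogene and 8 at an snRNA gene, and 39 were at another start of the assigned gene itself. The Bmp4 region, 46166 bp upstream of this growth factor gene, was 1 of them, with its midpoint 20 bp from the start of the processed transcript Gm15221. One of the 3 regions of Ets1, an ETS factor of neural crest and endothelium, was 102 bp from another Ets1 start.

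The members were narrow and moderate in GC compared with promoters. Their median width was 957 bp (quartiles 798.5 and 1144.5 bp, range 381 to 4023 bp), against 936 bp for downstream distal regions, 1041.5 bp for the 1126 regions 1 to 10 kb from the TSS on either side and 1294 bp for the 8765 regions within 1 kb. The median GC content was 48.2%, against 48.4%, 52.1% and 58.2% in these classes. CpG dinucleotides occurred 1.51 times per 100 bp in the median member, against 1.42, 2.55 and 5.95 times. By distance, the median CpG frequency was 1.80 between 10 and 20 kb, from 1.25 to 1.60 in the steps between 20 and 90 kb and 1.13 between 90 and 100 kb.

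Because the list has no replicate values, the classes were compared over the 20 chromosomes, with an exact two-sided sign test on the difference of the medians per chromosome and Benjamini-Hochberg adjustment over 9 comparisons. The chromosomes are parts of 1 list and not separate embryos. Against regions within 1 kb, members were lower in width by a mean difference of -335.6 ± 81.6 bp (SD, n = 20 chromosomes), in GC by -9.8 ± 1.2 percentage points and in CpG by -4.36 ± 0.51 per 100 bp, each on 20 of 20 chromosomes (adjusted exact p = 3.43e-06, from the smallest p the sign test can give here). Among regions of the median width of all regions or wider, the width difference was -113.8 bp (adjusted exact p = 0.00197). Against regions at 1 to 10 kb, GC differed by -3.5 ± 1.3 points and CpG by -0.96 ± 0.49 per 100 bp, again on 20 of 20 chromosomes (adjusted exact p = 3.43e-06), and width by -75.4 ± 91.3 bp, lower on 16 of 20 (adjusted exact p = 0.0177). The width difference passed neither when only wider regions were used (adjusted exact p = 0.143) nor when distances were taken to GENCODE starts (adjusted exact p = 0.13).

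Upstream and downstream distal regions were close to each other. GC differed by -0.4 ± 1.2 points (lower on 15 of 20 chromosomes, adjusted exact p = 0.0466) and CpG by 0.13 ± 0.24 per 100 bp (higher on 15 of 20, adjusted exact p = 0.0466), and both differences were smaller than their spread between chromosomes. Neither passed on autosomes only (adjusted exact p = 0.0715 for each) or without regions within 1 kb of an annotated start (adjusted exact p = 0.503 for GC and 0.0532 for CpG). The CpG difference passed at 0.13 with GENCODE starts (adjusted exact p = 0.0177) and was larger, 0.56 per 100 bp, among regions of the median width of all regions or wider (adjusted exact p = 0.000494). Width differed by 24.9 ± 64.9 bp and did not pass (higher on 14 of 20, adjusted exact p = 0.115).

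**Figure D2:**
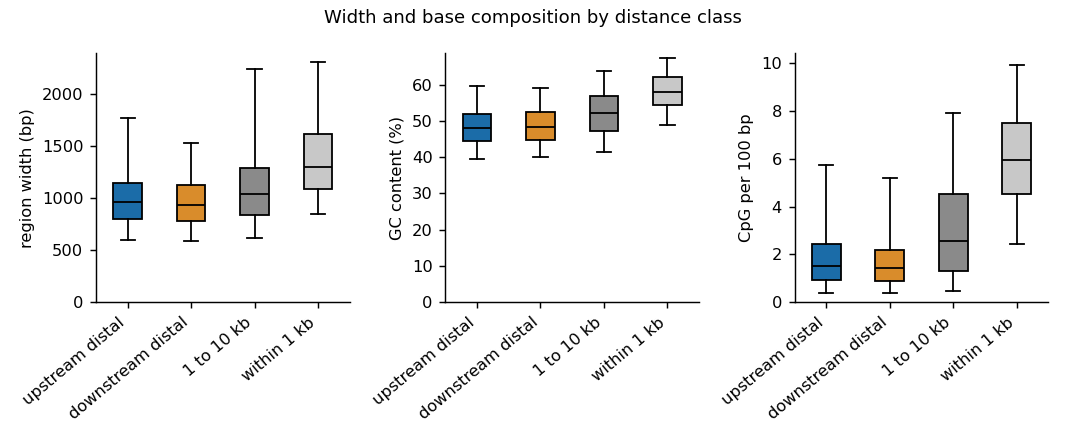
Width, GC content and CpG frequency of regions in 4 classes of distance from the assigned start. Boxes span the quartiles with the median as a line, and whiskers reach from the 5th to the 95th percentile of regions. The upstream and downstream distal boxes are nearly level, at medians of 957 and 936 bp, and the promoter boxes stand highest.

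Members at an annotated start were different in composition from the others. The 132 members within 1 kb of a start had a median width of 1167.5 bp, a GC content of 54.95% and 3.74 CpG per 100 bp. For the other 1435 members these medians were 947 bp, 47.86% and 1.45. Resemblance to a CpG island, taken as a GC content of at least 50% and a ratio of observed to expected CpG of at least 0.6, was found in 52 of 132 members at a start (39.4%, 31.5 to 47.9%) and in 74 of 1435 elsewhere (5.16%, 4.13 to 6.43%). In regions within 1 kb of the assigned coding TSS it was 73.3%. The regions upstream of Arid1a and Arid1b, which encode DNA-binding subunits of SWI/SNF complexes, were intergenic with GC contents of 68.4% and 64.6%. They were 60279 and 86706 bp from the assigned TSS. The Arid1a region was, however, 2530 bp from the start of the processed transcript Gm12974. For the Arid1b region, the nearest annotated start was 85964 bp away.

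The widest members were of several kinds. The widest, 4023 bp (chr3:148650089-148654111), was assigned to the adhesion receptor gene Adgrl2 at a distance of 34501 bp, but its midpoint was 180 bp from another start of the same gene, which the annotation names Lphn2, and it held 7.88 CpG per 100 bp. The second, of 3177 bp, was 12390 bp upstream of the natural killer receptor gene Klrb1b in intergenic DNA. A region of 2819 bp assigned to the chemokine receptor gene Ccr4 was inside an intron of Trim71. The other two, of 2778 bp assigned to the proteasome gene Psmd14 but nearer to a start of Tank, at 12439 bp, and of 2668 bp near Snap25, a gene of vesicle fusion at the synapse, were intergenic. None of these 5 genes belongs to the lists of cardiac regulators.

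The motif content of the members was then compared with that of the DNA around them. The central 300 bp of each member was searched for 19 motifs, and the same search was made in 3126 windows of 300 bp centered 3 kb to either side and outside every listed region. Differences per chromosome were tested with the sign test, adjusted over the 19 motifs. The centers were richer in GC than the flanks, with means of 52.3% and 43.1%, and the part of this in the motif shares was not tested.

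By the ratio of center to flank, CTCF motifs stood apart most of the 19, although only 3 flanks held one. They were found in 77 of 1567 members (4.91%, 3.95 to 6.10%) and in 0.096% of flanks (0.0326 to 0.282%), higher in the center on 18 chromosomes and lower on 1 (adjusted exact p = 0.000483). The same motif with its letters in reverse order, which holds a CpG, was found in 0 members. In downstream distal regions the share was 5.01%, in regions within 1 kb of a TSS 0.491%, and over all regions 2.33%. Members with the motif had a median width of 773 bp, against 965 bp for the rest. They were intergenic in 59 of 77 cases (76.6%, 66.0 to 84.7%). None of the 132 members at an annotated start held it, which allows a share of up to 2.27%. For 51 of the 77 (66.2%, 55.1 to 75.8%), the assigned gene also had a listed region within 1 kb of its TSS, against 59.0% of all members. Of the 74 with 1 orientation and a known gene strand, the motif pointed toward the assigned TSS in 30 and away from it in 44, so that 40.5% pointed toward it, with an interval of 30.1 to 51.9% that includes equal numbers.

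Examples at transcription factor and list genes are given here, in order of closeness of the match to the region center. Each is 60 bp on the strand on which the motif reads, with the match in capitals.
Hlx, chr1:186595669-186595728: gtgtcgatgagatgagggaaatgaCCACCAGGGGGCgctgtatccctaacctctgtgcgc
Thrb, chr14:18800032-18800091: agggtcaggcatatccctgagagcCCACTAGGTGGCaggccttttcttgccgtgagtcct
Neurod4, chr10:129735966-129736025: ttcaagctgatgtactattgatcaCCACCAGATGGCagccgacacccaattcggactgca
Tfap2b, chr1:19169268-19169327: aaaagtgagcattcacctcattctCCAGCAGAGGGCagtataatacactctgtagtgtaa
Hlx encodes a homeobox factor, and its match was 1 bp from the center of a region 39327 bp upstream. Thrb encodes a thyroid hormone receptor, and its region lay 14163 bp upstream in an intron. The regions of Neurod4, a neural bHLH gene, at 18577 bp and of Tfap2b, an AP-2 gene of neural crest, at 29842 bp were intergenic. The matches at Thrb, Neurod4 and Tfap2b were 66, 108 and 144 bp from the region center. Over all members with the motif, the median was 54 bp.

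The other motifs that passed in the direction of the center were an E-box, TALE, SOX and the box bound by Sp and Klf factors. The E-box CAGCTG, a core read by bHLH factors, was in 21.6% of centers (19.6 to 23.7%) and 11.3% of flanks, higher on 19 of 20 chromosomes (adjusted exact p = 0.000381). In downstream distal regions it was found in 27.4% and in all regions in 19.6%. TALE (TGACAG), the core of Meis and Tgif proteins, was in 23.5% of centers and 17.7% of flanks (adjusted exact p = 0.00346). Its share was 23% in downstream distal regions and 18.5% in all regions. SOX (ACAATGG) was in 7.21% of centers and 5.12% of flanks (adjusted exact p = 0.00979). Its share was 6.47% in downstream distal regions and 4.30% in all regions. The Sp and Klf box GGGGCGGGG was in 4.53% of centers and 0.576% of flanks (adjusted exact p = 0.000381). Its share was 4.59% in downstream distal regions and 12.3% in all regions. With the letters in reverse order, TALE was found in 13.1% and SOX in 1.85% of the same centers. Among the 422 members that were at least as wide as the median of all regions, tested on 18 chromosomes, the CAGCTG difference was 9.63 points (10.3 over all members, adjusted exact p = 0.147) and that of TALE 5.07 (5.79 over all members, adjusted exact p = 0.208), of similar size but not passing. The CTCF difference there was 1.07 points (4.82 over all members, adjusted exact p = 0.198), and the SOX difference changed sign. With windows of 200 bp, SOX did not pass either (adjusted exact p = 0.0838).

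The core of TEAD factors (GGAATG), which are partners of Yap in growth control, was in 21.3% of centers and 16.4% of flanks, higher on 15 of 20 chromosomes, and did not pass (adjusted exact p = 0.112). It passed with windows of 200 bp (adjusted exact p = 0.0449) and with flanks 5 kb away (adjusted exact p = 0.0374). It did not pass with unique sequence only, at a difference of 5.09 points (adjusted exact p = 0.112). Among members at least as wide as the median of all regions it did not pass either, at 0.688 points against 4.87 over all members. The share of the TEAD core was 22.8% in downstream distal regions and 15.4% over all regions.

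AGATAA, the core read by GATA factors, was the only motif of the 19 that passed in the other direction, with 15.3% of centers (13.6 to 17.1%) against 18.5% of flanks (adjusted exact p = 0.0374). Under the 4 alternatives tried the difference kept its direction, at -2.63 to -5.23 points against -3.24, but did not pass (adjusted exact p from 0.0608 to 0.229). It was in 13.8% of downstream distal regions, 3.26% of regions within 1 kb of a TSS and 8.53% of all regions. These differences from the members were not tested. The core TAATGG, a sequence read by Isl1, was found in 9.32% of centers (7.98 to 10.9%) and 12.7% of flanks and did not pass (adjusted exact p = 0.151). In downstream distal regions it was in 9.39%, in promoter regions in 2.86% and in all regions in 6.14%. For the homeodomain core TAATTA the shares were 7.59% of centers and 8.83% of flanks (adjusted exact p = 0.203), 7.25% of downstream distal regions and 4.33% of all regions. The E-box CAGATG was in 20.9% of centers, 21.6% of flanks, 21.9% of downstream distal regions and 15% of all regions. The nuclear receptor core AGGTCA was in 17.9% of centers, 17.7% of flanks, 17.6% of downstream distal regions and 13.4% of all regions. For the AP-1 site TGANTCA these shares were 7.34%, 8.80%, 8.46% and 5.55%. These 3 motifs and those of NKX2, T-box, forkhead, PBX-HOX, ETS, MEF2 and SRF did not pass, with shares in the centers from 0.574% for MEF2 to 5.62% for forkhead among the latter. For 249 members no motif of the 19 was found, and the median member held 2 kinds.

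**Figure D3:**
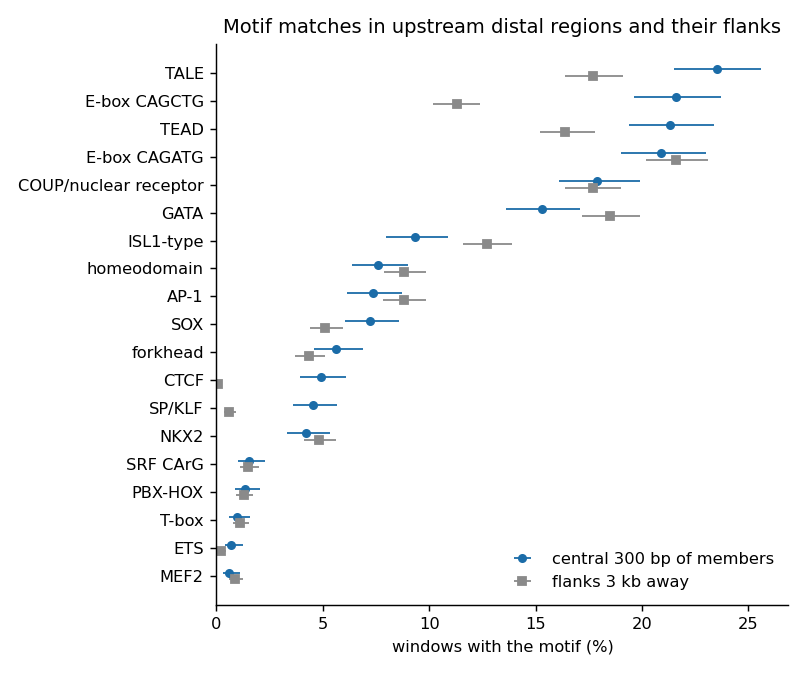
Share of windows with a match to each of 19 motifs, for the central 300 bp of 1567 members (blue circles) and for 3126 flanking windows (gray squares), with 95% Wilson intervals as bars. CTCF, CAGCTG, TALE and the Sp and Klf box lie farther right in the centers, and GATA lies farther left.

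The position of the matches within the members was also examined, by counting them in steps of 200 bp around the centers. CTCF matches numbered 16.3 and 13.4 per 100 kb in both central steps, against a median of 0.638 (range 0 to 1.91) in the 20 steps over 1 kb away. CAGCTG reached 89.0 and 76.3 per 100 kb at the center, with a median of 45.3 (33.5 to 49.5) farther out. TEAD reached 86.2, against 60.3 (53.6 to 70.2), and TALE 92.5, against 72.2 (58.4 to 81.0). For SOX the center reached 26.2 and the outer steps ranged up to 23.3. GATA was at 54.9 in one central step, below its outer range (58.4 to 77.5), and at 59.7 in the other, near the lower end of it.

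**Figure D4:**
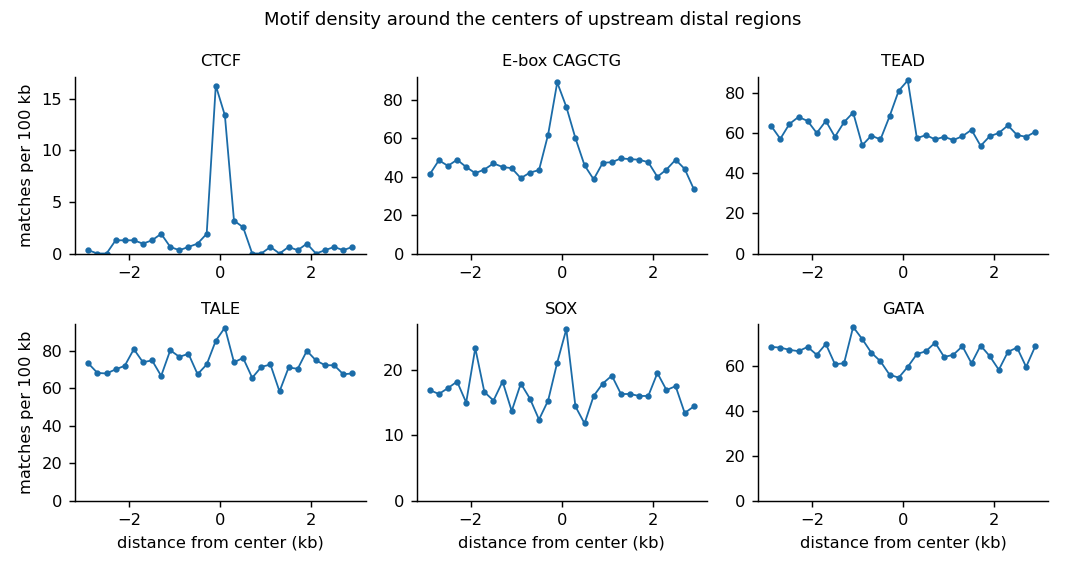
Density of 6 motifs from 3 kb before to 3 kb after the center of the members, on the plus strand of the genome, in steps of 200 bp. CTCF and CAGCTG rise at the center, to 16.3 and 89.0 matches per 100 kb, and GATA dips there.

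The genes to which the members were assigned were then described. Of 21031 coding genes with a curated transcript, 1300 (6.18%) had at least 1 member. Genes with a member had more upstream space, with a median of 129856 bp to the next coding start, against 27303 bp for genes without one. The rule itself favors this, since regions are assigned by distance and a close upstream neighbor leaves little room for a member. Among the 12388 genes with at least 20 kb of such space, 1223 (9.87%) had a member, and the shares of the lists below are given against both values. The lists were described by their counts, with no test. Most genes with members, 1127 of 1327, had 1, while 165 had 2, 32 had 3, 1 had 4 and 2 had 5.

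Transcription factor genes of 12 families made up 51 of the 1300 genes (3.92%, 3.00 to 5.12%), against 2.22% of all coding genes, 4.08% of genes with a downstream distal region and 1.85% of genes with a region within 1 kb. Of the 466 genes of these families, 51 (10.9%, 8.42 to 14.1%) had a member, and 14.7% (11.3 to 18.9%) of the 334 with at least 20 kb of space, against 9.74% of other spaced genes. bHLH genes had a member in 12 of 74 cases, among them Hey1, Id4, Tcf12, Mycn and Olig2. Nuclear receptors had one in 7 of 45, among them Nr2f1, Rarb, Rora and Thrb, and the Zic, Gli and Klf group, counted with the Sp, Egr, Zeb and Snai genes, in 7 of 46, among them Gli3, Klf3 and Klf5. For homeobox genes it was 9 of 169 (5.33%, 2.83 to 9.81%), and these included Irx3, Msx1 and Hlx. The share was thus near the value over all coding genes for homeobox genes.

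Over all genes of each list, signaling genes had the highest share of the 14 lists. Downstream distal regions were also found, at 11 of 40 signaling genes, 7 of 34 cardiac, 6 of 25 pharyngeal and 6 of 14 guidance genes. For the endothelial, neural crest and foregut lists described below, it was 4 of 20, 2 of 12 and 1 of 14. Over all coding genes, 1568 of 21031 had a downstream distal region. Of 40 growth factor and morphogen genes, 14 (35.0%, 22.1 to 50.5%) had a member, and 14 of 35 (40%, 25.6 to 56.4%) of those with at least 20 kb of space. Jag1, a Notch ligand, had 3, at 36827, 58893 and 99208 bp upstream, between 796 and 886 bp wide and all intergenic. Lef1, a nuclear effector of Wnt signaling, had 2 at 25089 and 90714 bp. The Notch effector gene Hey1 had 2 at 18244 and 50676 bp, and Gli3, a transcription factor of the Hedgehog pathway, had 2 at 36705 and 68200 bp. Wnt11, a ligand of noncanonical Wnt signaling in the outflow tract, had 1 of 2263 bp at 19298 bp. Spry2, an inhibitor of FGF signaling, had 1 of 1510 bp at 24019 bp, with none of the 19 motifs in its central 300 bp. Of the BMP pathway, Bmp4, Bmp7 and the inhibitor Smad7 had 1 each, at 46166, 18451 and 24399 bp. The promoters of Jag1, Lef1, Hey1, Gli3, Spry2, Bmp7 and Smad7 were also in the list of open regions, and those of Bmp4, Wnt11 and Wnt5a were not.

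Among 34 cardiac and second heart field regulators, 6 (17.6%, 8.35 to 33.5%) had a member, and 6 of 26 (23.1%) of those with space. Each had 1. Besides Nr2f1, these included Gata4, a zinc-finger factor of early heart formation, whose region of 1049 bp at 10763 bp had a GC content of 61.8% and was within an annotated Gata4 intron, Tead1, a TEAD factor, at 15489 bp in an intron of a longer transcript, Irx3, an Iroquois homeobox gene, at 20166 bp, and Mef2a, a MADS-box factor of muscle, at 90804 bp. The Tead1 region was 1850 bp downstream of another annotated Tead1 start. Isl1 itself had no member. Its promoter was in the list, 286 bp from the TSS, and a region 15454 bp downstream, while its nearest distal region upstream lay at 104479 bp, just beyond the window, with 5 more between 133862 and 265551 bp. Of 25 pharyngeal and head mesoderm regulators, 2 (8%, 2.22 to 25.0%) had a member, namely Msx1 and Eya4, a transcriptional coactivator that is also a phosphatase, whose region was at 67295 bp. Among 14 axon guidance and adhesion genes with cardiac roles, 3 (21.4%, 7.57 to 47.6%) had one. Has2, a hyaluronan synthase of the cardiac cushions, had 2, at 48515 and 80351 bp in introns of its antisense gene, and the guidance receptor gene Robo1 and the proteoglycan gene Vcan had 1 each.

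Contractile genes had no member, and their small number does not set them apart from other genes. Of 21 cardiac contractile and calcium genes, 0 had one, which allows a share of up to 14.3%, and of 20 skeletal muscle contractile genes, 0 had one, which allows up to 15%. Both limits lie above the 6.18% of all coding genes and the 9.87% of spaced genes, and they cover counting error over genes only. The contractile genes also had less upstream space, with medians of 22277 and 21879 bp, against 27303 bp for genes without a member. Of them, 13 and 10 had at least 20 kb.

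Genes of other cell types in or near the dissected tissue had members too. Of 20 endothelial and endocardial genes, 5 (25.0%, 11.2 to 46.9%) had one. Cdh5, the adhesion molecule VE-cadherin, had 2 at 24420 and 73008 bp, the ETS factor gene Fli1 had 2 at 50486 and 65862 bp, which were nearer to an annotated start of Ets1, at 44283 and 28907 bp, and the receptor genes Flt1 and Tek and the gene Sox17 had 1 each. The promoters of Cdh5, Fli1, Tek and Sox17 were not among the listed regions. Of 14 foregut endoderm genes, 4 (28.6%, 11.7 to 54.6%) had a member, namely Pax8 with 2, Foxa2, Epcam and Sox17, which stands in both lists. No promoter of the 14 was listed, against 8537 of 21031 over all coding genes. Among the foregut genes with at least 20 kb of space, 4 of 10 (40%, 16.8 to 68.7%) had a member, the same share as for signaling genes. Among 12 neural crest regulators the number was 3 (25.0%, 8.89 to 53.2%), with 3 regions at Ets1 and 1 each at Zeb2 and Tfap2b, and among 16 neural regulators it was 2 (12.5%, 3.50 to 36%), Olig2 and Neurod1. For 15 blood genes it was 1, Runx1 (6.67%, 1.19 to 29.8%), and for 12 liver genes 1, Ttr (8.33%, 1.49 to 35.4%). SWI/SNF subunits had 2 of 19 (10.5%, 2.94 to 31.4%) and housekeeping genes 2 of 15 (13.3%, 3.74 to 37.9%), among them Eef1a1, a translation elongation factor gene, with 2 members. The intervals of 6 lists lay above the 6.18% of all coding genes, namely the cardiac regulator, signaling, guidance, endothelial, neural crest and foregut lists, and those of the signaling, endothelial, foregut and cardiac lists among the spaced genes lay above 9.87%. The median upstream space of these 6 lists was large, from 43242 bp for the foregut to 458584 bp for the guidance list. It was also large for the pharyngeal and neural lists, at 162896 and 178601 bp, and their intervals included 6.18%. A limit of 20 kb does not even out this space, and its part in the shares was not tested.

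**Figure D5:**
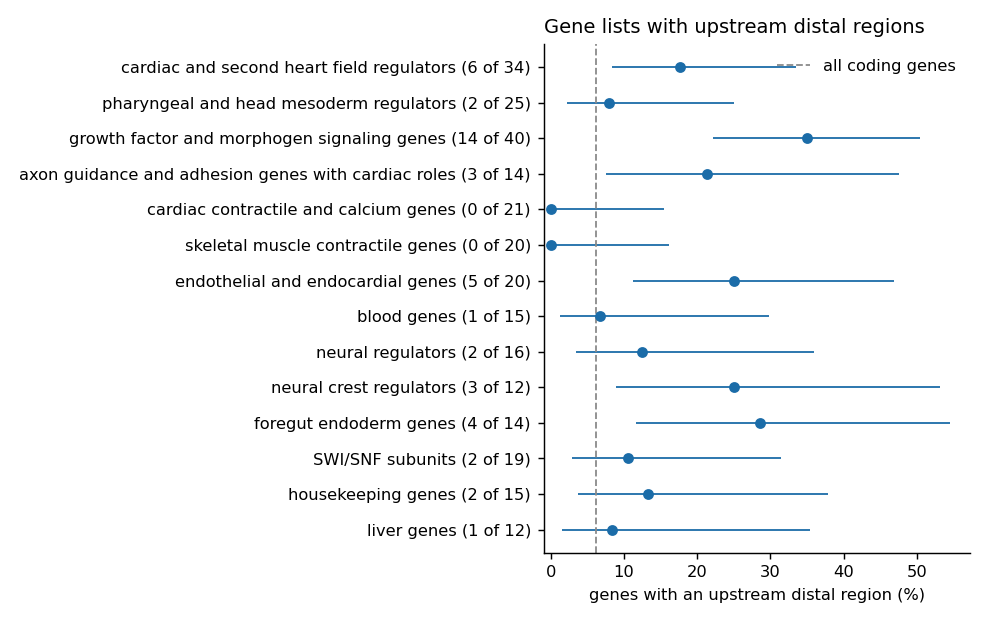
Share of the genes of 14 lists that had at least 1 upstream distal region, with 95% Wilson intervals, and the number of genes in brackets. The dashed line is the 6.18% of all coding genes, and the signaling list lies farthest to its right at 35.0%.

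The genes with the most members differed in how these were spread. Nrxn3, a neurexin of synaptic adhesion, and Tiam1, an activator of the GTPase Rac, had 5 each. The Nrxn3 members were between 42459 and 93045 bp from their TSS, but spread from chr12 position 89947307 to 91004141, as the gene has several annotated starts, and 1 of them was 60 bp from such a start. The 5 Tiam1 members, between 647 and 1154 bp wide, were all in introns of longer Tiam1 transcripts, and the promoter of the assigned transcript was not listed. Got2, an aspartate aminotransferase, had 4, all intergenic, from 13674 to 98894 bp, and 13 listed regions in all. With 3 members each followed, by covered length, Mreg, Ptn, Ptma, Slc2a3, Cdon, Sox5 and Lmo1. Cdon, a coreceptor of Hedgehog ligands, had 1 member 19 bp from another Cdon start, with 9.10 CpG per 100 bp, and 2 intergenic ones at 51131 and 79588 bp with 1.97 and 1.16. Ptn, a heparin-binding growth factor, had its 3 at 47163, 69785 and 92271 bp, all in introns of the neighbor Dgki. Those of Sox5, a SOX factor, were in Sox5 introns.

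Members were mostly single in the genome as well. Joined at gaps of up to 10 kb, they formed 1417 single regions, 69 pairs and 4 runs of 3. The run with the most covered bases spanned chr13:23591754-23610309 in the histone gene cluster, with 2 members assigned to Btn2a2 and 1 to Hist1h4h, a histone H4 gene. The next, assigned to the melanosome transport gene Mreg, had its 3 members at 108, 16 and 131 bp from annotated snRNA starts. Their sequence was partly repeated, since 79.6%, 74.4% and 87.9% of their 31-mers occur once in the genome. The third was within Slc2a3, a glucose transporter gene, between 22337 and 34583 bp upstream of the assigned TSS but downstream of another annotated Slc2a3 start, by 2629 to 14875 bp. Over all members, 46 had under 50% unique 31-mers.

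Finally, the members were compared with the promoters of their genes. For 925 members (59.0%, 56.6 to 61.4%), the assigned gene also had a listed region within 1 kb of its TSS, against 60% (57.8 to 62.2%) of downstream distal regions, and the intervals overlapped. Of the 1327 genes, 267 (20.1%) had a downstream distal region too and 355 (26.8%, 24.4 to 29.2%) had no other listed region. Members of genes with a listed promoter had a median width of 955 bp and 1.41 CpG per 100 bp, and those without had 966 bp and 1.66. Across the genome, autosomes held 0.599 ± 0.135 members per Mb (SD, n = 19 chromosomes), from 0.293 on chromosome 19 to 0.847 on chromosome 2, and the X chromosome held 0.216 per Mb, or 36 members. These were 6.64% of the 542 listed regions of the X chromosome. On autosomes, members were 8.99 ± 1.76% of the listed regions (SD), from 4.84% to 12.6%, a range that includes the X chromosome.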

How the data were processed

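ATAC-Seq libraries of 3 wild-type, 3 Isl1-/- and 3 Isl1Cre+/-/Brg1fl/fl embryos were grouped by genotype label, and only the list of the wild-type group was analysed. Per the methods of the study, the authors mapped reads to mm9 with bowtie2, removed duplicates with Picard 1.136, called peaks with MACS, removed blacklisted peaks and kept regions common to the replicates with bedtools 2.15. The deposited columns hold start, end and distance to the TSS in bp, a RefSeq transcript and a symbol, with no score or count per library. Requiring a region in every library favors strong sites, so a missing region does not show closed chromatin, and the fixed tag extension of peak calling widens regions. The mapping quality filter and the tool that assigned genes to these regions are not given in the sources used here. No value column was left unmapped (0 columns).

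Rows with equal coordinates were counted once (17432 rows, 17164 regions). No region ended beyond its chromosome (0 regions) in NCBIM37, the build of mm9, from which sequence was read. Of the 1437 members whose symbol is in the GENCODE annotation of that build, 1310 (91.2%) had a distance within 100 bp of that from their midpoint to a start of the gene, and for 24.2% of members another coding start was closer by over 100 bp. Of 1327 genes, 1268 were matched by accession, 58 by symbol and 1 by synonym to the RefSeq gene table of GRCm38.p6, used for names and types only. Motifs were searched on both strands, those of CTCF, MEF2 and SRF as degenerate consensus sequences and those not spelled out in the results as TCAAGTG for NKX2, AGGTGTGA for T-box, TGTTTAC for forkhead, TGATTGAT for PBX-HOX and CCGGAAGT for ETS. The TALE core and CAGCTG can share 3 letters. Tests were exact two-sided sign tests over chromosomes with at least 10 regions in both classes and a threshold of 0.05 after Benjamini-Hochberg adjustment, in Python 3.11.15 with scipy 1.17.1, and were tested on simulated data. Shares have 95% Wilson intervals, which cover counting error only, and a count of 0 was given the limit of 3 counts.

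Genes named were the 10 with the most members, the 5 widest members, the 3 runs with the most members, up to 6 genes of each list by number of members and then width, and Isl1, and other genes were named as examples after their values were seen. Some results and sequences that these rules would name are not reported here and remain in the counts. Sequences were those of the genes of the first 3 lists with the most kinds of motif, and the CTCF examples were added later. The members, lists and tests were chosen with earlier results of these data known. Alternatives were wider regions, a window of 20 to 100 kb, GENCODE starts, autosomes, unique sequence, other windows and flanks, and other joining distances. Reversed motifs, the 20 kb space and the exclusion of regions at annotated starts were chosen after the data had been seen.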

Additional observations from a re-analysis of the deposited data

How the results depend on the processing

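With the wider regions only (from the median width of all regions upward), there were 422 members, their median width was 1350 bp, GC content 50.2% and CpG frequency 2.27 per 100 bp, 49.1% had an open promoter at the assigned gene, 64% were intergenic, and 5.47% of their genes were transcription factors of the families. Under that setting the GC difference to downstream distal regions reversed to 0.7 points (adjusted exact p = 0.143), the width difference to regions at 1 to 10 kb was -48.6 bp (adjusted exact p = 0.143), 1 motif was higher in the center instead of 5, and the difference between center and flank reversed for forkhead (-0.637 points), SOX (-0.396), PBX-HOX (-0.247), the nuclear receptor core (-1.22) and MEF2 (0.587). There the width difference to regions within 1 kb was -113.8 bp and the CpG difference to downstream regions 0.56, both passing. With fewer members, 17 or 18 chromosomes had 10 regions in each class. With flanks 5 kb away, SRF reversed to -0.17 points. Under each of the 4 motif alternatives, 0 motifs were lower in the center by the adjusted sign test, with 1 to 3 at an unadjusted p under 0.05. GATA was among these with unique sequence only. In the other settings they were TAATGG, alone or with CAGATG, and AP-1 also among wider regions. With members from 20 to 100 kb, the median CpG frequency was 1.43, the width difference to downstream regions passed at 26.7 bp (adjusted exact p = 0.0152) and the CpG difference did not at 0.03. With unique sequence only, that width difference passed at 25.2 bp (adjusted exact p = 0.0414). With GENCODE starts, the width difference to regions at 1 to 10 kb was -27.2 bp and the GC difference to downstream regions -0.1 points, neither passing. On autosomes, the GC and CpG differences to downstream regions were -0.2 points and 0.12, and without regions at annotated starts -0.1 points and 0.09, none passing. Joining at 5 kb gave 31 runs of 2 or more members and joining at 25 kb gave 139, against 73 at 10 kb. Restricting to genes with 20 kb of space moved the share of coding genes with a member from 6.18% to 9.87%. The cause of these changes was not tested. No paired analysis was possible because only 1 list of 1 group was used, and no library could be left out. Depth is unknown, so weak sites missed in 1 library cannot be told from closed ones.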
